A study of Rattus norvegicus with 17 samples.

Results

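The NIH vein is the stretch of the rat superficial epigastric vein that received arterial blood after an arteriovenous fistula operation and then developed neointimal hyperplasia (NIH), a thickening of the inner wall. Its 5 arrays, chosen by their source label, were compared with the 12 arrays of every other vessel sampled, which makes 17 arrays in all. The other vessels were narrowed side branches of the same vein under arterial flow (stenotic side branch, n = 3), the same vein beyond a ligation with venous flow and no lesion (venous-flow vein, n = 6), and the common femoral artery with arterial flow and no lesion (femoral artery, n = 3). By their source names, samples of the venous-flow vein followed a ligation operation and those of the other 3 groups a fistula operation, and all date from 13 to 14 days after surgery. Luminal endothelium was cut out by laser capture, 10 captures were pooled per RNA, and 50 ng of total RNA was amplified and labelled with Cy5 for a single-colour array. The study text counts 6 rats for 17 regions, so by that count some regions share an animal. Each sample title carries a different number, and no label says whether it stands for a rat. The p-values over regions are too small where regions of a group share a rat, which the labels do not settle. The sources used here do not give strain, sex or age. Against the pooled 12 arrays the NIH vein differs in lesion, flow, vessel or surgery at once, depending on the array, and these cannot be told apart.

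Neointimal hyperplasia is the main lesion that narrows dialysis fistulas: smooth muscle-like cells and matrix build up between the endothelium and the elastic lamina. Endothelial cells under disturbed arterial flow are known to release growth factors, binding proteins and vasoactive peptides toward the wall. The results below are ordered by these roles: growth factor binding and ErbB ligands first, then receptor signalling, ubiquitin-like modifiers, protease inhibitors, matrix and vasoactive genes.

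Only the 10000 spots with a value in the deposited value table were used, out of 41372 gene probe spots, and they gave 9446 features (2876 with a gene symbol). Each array exists in a form labelled raw, the scanner output, and in a normalized form, a column of the value table. For the 5 NIH vein arrays both forms held the same ranks, while each of the 12 others had, in its scanner file, the ranks of a different sample's column. Since the 12 are pooled, the contrast holds the same 5 and the same 12 arrays in either form, and a single array is named below after its scanner file. On 11 arrays, all of them among the 12, the deposited background can be computed as the average of 2 other arrays to within 0.001 intensity units, and is called filled here. On these 11 arrays 93.19 to 100% of signals outside the 10000 spots also equal such an average. At the 10000 spots the share was 0.01% or less. NIH vein arrays are among those averaged for stenotic side branches 2 and 3 and venous-flow veins 1, 2 and 3. The 5 NIH vein arrays and stenotic side branch 1 have a background of their own, so, but for that 1 side branch, an effect of the filled background cannot be told apart from the vessel. Median signal above background was 47.0 to 80.9 intensity units on the NIH vein arrays and 28.5 to 56.3 on the others, before normalization. NIH vein 1, stenotic side branch 3 and femoral artery 1 stood apart, with median rank correlations with the other arrays of 0.361, 0.373 and 0.465 against 0.676 to 0.78 for the remaining 14. Of 20 endothelial markers only Mcam, Sox18 and Kdr were among the features. Their levels on the NIH vein arrays were 6.93 to 8.45, 6.38 to 6.72 and 6.50 to 7.34 on the log2 scale. These lie above the floor of 5.64 that the background correction sets. On the same arrays the collagen gene Col1a2 was at 13.18 to 15.21 and the red cell gene Hbb-b1 at 13.75 to 15.75. Levels of 3 genes above a floor do not settle which cells were captured, so the labelled cell type could not be checked further.

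In the scanner output 9 of 9446 features (0.0953%) passed an adjusted p under 0.05 in limma, all of them higher in the NIH vein and none lower. The 5 with a gene symbol were Igfbp3, Ubd, Gna14, Nrg1 and Serpinb6b, and the other 4 carry only array names. Igfbp3 encodes a secreted protein that binds insulin-like growth factors and controls how much of them reaches their receptor. Nrg1 encodes neuregulin, a ligand of ErbB receptors that endothelial cells are known to present to neighbouring cells. Gna14 encodes an alpha subunit of the Gq class of G proteins, which couples receptors to phospholipase C. Ubd encodes FAT10, a ubiquitin-like modifier that marks proteins for the proteasome and is known to be induced by interferon gamma and tumour necrosis factor. Serpinb6b encodes an intracellular inhibitor of serine proteases. The value table gave 7 calls (0.0741%), all higher and all among the 9, and Serpinb6b was not one of them. At an unadjusted p under 0.05, 754 features (7.98%) were higher and 443 (4.69%) lower in the scanner output, and the shares were 7.87% and 4.98% in the value table. The smallest adjusted p of a lower feature was 0.161. The mean level was higher in the NIH vein for 5109 features (54.1%) in the scanner output and for 53.8% in the value table, and the median difference over all features was 0.01.

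The promoters of the called genes are shown because these genes were higher on the same arrays, and the windows let a reader compare their base composition and motifs. RefSeq sequence on the GRCr8 build, from 250 bases before to 50 bases after the start site, was at hand for 4 of the 5 genes, without Nrg1. The windows of Igfbp3, Gna14 and Ubd are printed on the strand of the gene, 5′ to 3′, and capitals mark a motif match.
Igfbp3, chr14:86277895-86278194, minus strand: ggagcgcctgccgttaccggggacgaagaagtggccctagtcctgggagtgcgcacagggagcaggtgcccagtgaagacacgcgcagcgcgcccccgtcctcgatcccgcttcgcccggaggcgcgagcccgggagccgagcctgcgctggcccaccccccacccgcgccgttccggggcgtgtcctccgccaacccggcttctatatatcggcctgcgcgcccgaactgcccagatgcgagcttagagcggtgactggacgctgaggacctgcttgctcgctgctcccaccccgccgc
Gna14, chr1:223141552-223141851, plus strand: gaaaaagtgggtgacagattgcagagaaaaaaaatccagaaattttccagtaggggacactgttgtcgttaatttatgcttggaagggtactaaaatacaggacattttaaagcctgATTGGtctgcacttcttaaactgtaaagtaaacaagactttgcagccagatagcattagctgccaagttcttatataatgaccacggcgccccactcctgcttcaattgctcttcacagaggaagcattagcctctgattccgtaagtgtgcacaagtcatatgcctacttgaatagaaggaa
Ubd, chr20:1392636-1392935, minus strand: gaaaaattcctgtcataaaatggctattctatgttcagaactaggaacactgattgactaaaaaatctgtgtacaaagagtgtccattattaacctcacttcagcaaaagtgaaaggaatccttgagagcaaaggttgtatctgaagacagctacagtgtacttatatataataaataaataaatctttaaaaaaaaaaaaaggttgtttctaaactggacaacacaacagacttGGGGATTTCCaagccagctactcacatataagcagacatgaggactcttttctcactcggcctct
Both strands were searched for a TATA box (TATAAA), GC box (GGGCGG), kappa B site, AP-1 site (TGANTCA), gamma-activated site (TTCNNNGAA), TEAD site (CATTCC) and Smad box (GTCTAGAC), and for the CCAAT box. The Igfbp3 window held none of these letters and was 71.7% G and C, against a median of 51.7% over all promoters. The capitals in the Gna14 window, which was 41% G and C, are a CCAAT box read on the opposite strand, at base -133 from the start site, and 37.5% of 33469 promoters hold this motif. The capitals in the Ubd window, 35% G and C, match the kappa B consensus, with the first base at -15, and 7.51% of all promoters hold such a match. The Serpinb6b window (chr17:31683885-31684184, minus strand, 59% G and C) held a GC box at -72 and a kappa B match at -224. A GC box was present in 33.1% of promoters. The shares were 14.2% for the TATA box and for the TEAD site, 7.33% for the AP-1 site, 8.87% for the gamma-activated site and 0.197% for the Smad box. These matches describe letters in a window and are no evidence of a bound factor.

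Igfbp3 was at 11.46, 10.72, 11.47, 10.93 and 9.60 on NIH vein arrays 1 to 5, as normalized log2 intensity. On the other 12 arrays it ranged from 6.91 to 9.92 with a median of 7.89. Of the NIH vein arrays 4 lay above all others, and only NIH vein 5 was passed by another array, venous-flow vein 2 at 9.92. The means were 10.84 ± 0.76 (SD, n = 5) and 8.03 ± 0.87 (SD, n = 12), a difference of 2.80 ± 0.43 (SE) or 6.97-fold, with an adjusted p of 0.0291 in limma. The value table gave 2.96 with an adjusted p of 0.0325. A second Igfbp3 probe gave 1.44 ± 0.18 with an adjusted p of 0.00413 when every probe was a feature of its own. On that probe the NIH vein arrays ran from 7.20 to 7.91 and no other array exceeded 6.88, so the groups did not overlap. Before normalization the main probe stood 936 to 3765 intensity units above background in the NIH vein and 40.1 to 827.6 in the other vessels. These values are not corrected for the brightness of whole arrays, which ran higher in the NIH vein.

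The other measured members of the insulin-like growth factor list did not pass the test. Igf2r, which takes up the second growth factor of the family for degradation, differed by 0.48 (adjusted p = 0.57). Igf1 differed by -0.67 (adjusted p = 0.73), the binding protein gene Igfbp4 by -0.46 (adjusted p = 0.33) and Igfbp1 by -0.06 (adjusted p = 0.86). Of the 5 members measured, 2 had a higher and 3 a lower mean in the NIH vein, and the list median was -0.06.

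Nrg1 was at 6.84, 6.31, 6.50, 6.96 and 6.86 on the 5 NIH vein arrays. On the other arrays it ranged from 5.66 to 6.46, with the highest value again on venous-flow vein 2, which passed NIH vein 2. The means were 6.69 ± 0.28 (SD, n = 5) and 5.90 ± 0.23 (SD, n = 12). The difference was 0.79 ± 0.13 (SE), adjusted p = 0.0316, and 1.13 in the value table, adjusted p = 0.0465. The mean of the other vessels lies within 0.5 of the floor of 5.64, so the size of the difference depends on the offset of the background correction and no fold is given: with an offset of 10 it was 1.71 (adjusted p = 0.0548). A second Nrg1 probe had the opposite sign and did not pass the test: it differed by -0.36 ± 0.22 (SE), adjusted p = 0.557, with NIH vein levels of 5.73 to 5.96, close to the floor. With every probe a feature of its own, the adjusted p of the first probe was 0.0250. The first probe represents the gene because its mean over all 17 arrays is the higher, through its NIH vein values: over the other 12 arrays the second probe had the higher mean, at 6.21 against 5.90. Which transcripts each probe reads was not tested.

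Of the ErbB list 6 members were measured and Nrg1 alone was called. The receptor Erbb2 differed by -0.80 (adjusted p = 0.62) and the feedback inhibitor Errfi1 by 1.19 (adjusted p = 0.60). The ligands Hbegf and Tgfa differed by 0.02 and 0.11, and the receptor Egfr by -0.04. Of the 6 members, 4 had a mean over all arrays within 0.5 of the floor.

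Gna14 was at 7.35, 6.40, 6.42, 7.47 and 7.30 on NIH vein arrays 1 to 5. The other 12 arrays ran from 5.65 to 6.75, and 11 of them were at 6.08 or lower. Venous-flow vein 2, at 6.75, lay above NIH veins 2 and 3, so the groups overlapped. The difference was 1.11 ± 0.19 (SE), from 6.99 ± 0.53 (SD, n = 5) to 5.88 ± 0.30 (SD, n = 12), adjusted p = 0.0461 in limma. The value table gave 1.53, adjusted p = 0.0469. The mean of the other vessels lies within 0.5 of the floor, so the size of the difference depends on the offset and no fold is given. With an offset of 10 it was 2.22 (adjusted p = 0.0548) and without background correction 0.86 (adjusted p = 0.0657), which ended the call. Among 10 measured genes of heterotrimeric G protein signalling 7 had a higher mean in the NIH vein, beside 54.1% of all features. Gna14 was the only one of the 10 called. Gng11, a gamma subunit, differed by 0.26 (adjusted p = 0.36), Gnb1, a beta subunit, by 0.97 (adjusted p = 0.44), and Gnb2, another beta subunit, by -1.93 (adjusted p = 0.36). The stimulatory alpha subunit gene Gnas differed by 0.32, and the inhibitory Gnai3 by -0.04.

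Ubd was at 7.41, 9.34, 9.41, 7.68 and 6.90 on the NIH vein arrays. The other arrays ranged from 5.66 to 7.01 with a median of 6.06, and the highest were venous-flow vein 2 at 7.01 and stenotic side branch 2 at 6.95. NIH vein 5 lay just below both, and the other 4 NIH vein arrays lay above every other vessel. The difference was 2.00 ± 0.36 (SE), from 8.15 ± 1.15 (SD, n = 5) to 6.15 ± 0.44 (SD, n = 12), adjusted p = 0.0489. The value table gave 2.45, adjusted p = 0.0469. The call ended with an offset of 10 in the background correction, at 3.07 (adjusted p = 0.0548), and without background correction, at 1.69 (adjusted p = 0.0657). NIH veins 2 and 3 had the highest Ubd levels and the lowest Gna14 and Nrg1 levels of the 5, so the called genes did not share 1 order within the NIH vein. Before normalization Ubd stood 118 to 1102 intensity units above background in the NIH vein and 23.6 to 115 in the other vessels, without correction for the brighter NIH vein arrays.

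No gene that acts with Ubd in these lists passed the test. In the list of interferon response and antigen presentation, 7 of 10 measured members had a lower mean in the NIH vein, and the list median was -0.06. The interferon targets Gbp2, Irf7 and Oas1a differed by -0.41, -0.29 and -0.40, and the immunoproteasome subunit Psmb9 by -0.03. None of these passed the test, with adjusted p-values of 0.64 or higher. In the list of ubiquitin-like modifiers and proteasome, 15 of 19 measured members had a higher mean, beside 54.1% of all features. The median of that list was 0.23 beside 0.01 over all features. The ubiquitin gene Ubb differed by 0.95 (adjusted p = 0.54), and the subunits of the proteasome in the list by -0.15 to 0.44.

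Serpinb6b was at 6.13, 6.14, 6.09, 6.20 and 6.27 on the NIH vein arrays, a narrow band. The others ran from 5.68 to 6.10, and the highest, venous-flow vein 2, passed NIH vein 3 in the second decimal. The difference of 0.34 ± 0.06 (SE) had an adjusted p of 0.0489 in the scanner output and was 0.52 with an adjusted p of 0.0673 in the value table. Both means, 6.17 ± 0.07 (SD, n = 5) and 5.83 ± 0.11 (SD, n = 12), lay close to the floor, and this was the smallest difference among the called genes with a symbol. With an offset of 10 it was 0.91 (adjusted p = 0.106) and without background correction 0.25 (adjusted p = 0.149). Before normalization it stood 52.3 to 78.2 intensity units above background in the NIH vein and 23.2 to 48.2 in the other vessels. The medians over all spots were alike, at 47.0 to 80.9 and 28.5 to 56.3. These unnormalized ranges therefore cannot separate the gene from the brightness of the arrays.

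**Figure D1:**
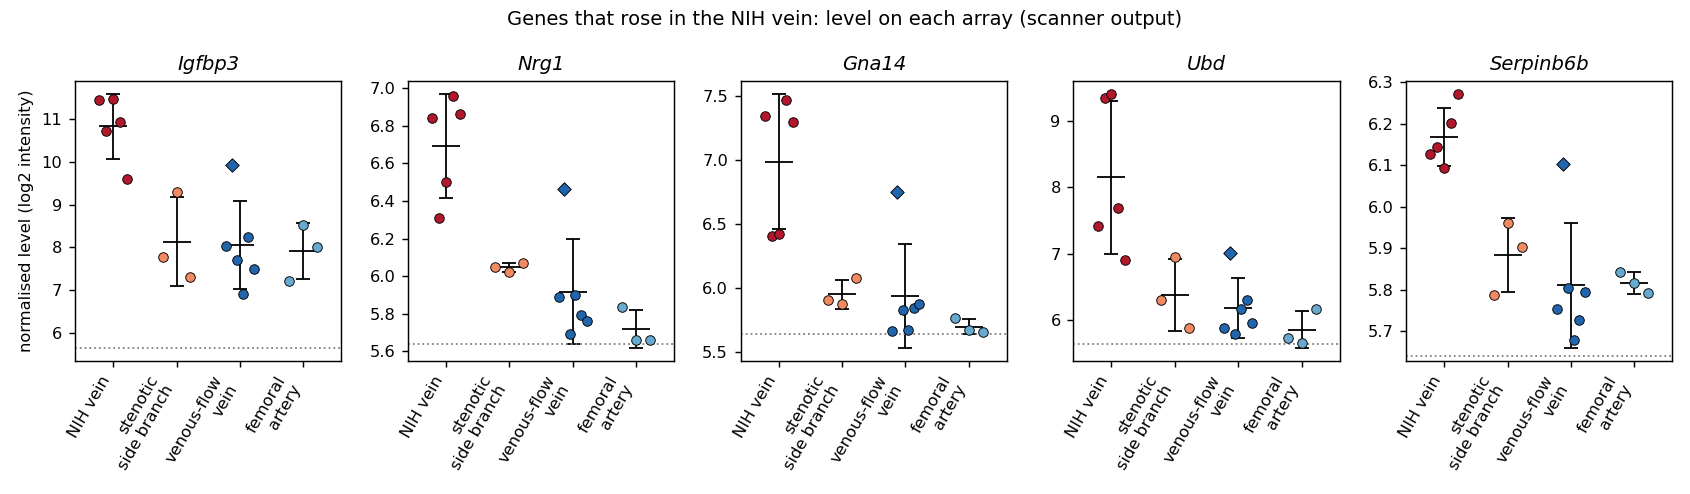
Normalized level (log2 intensity, scanner output) of the 5 called genes with a symbol on each of the 17 arrays, 1 point per array, with the mean and SD of each group as bars and the floor of 5.64 as a dotted line. Venous-flow vein 2 (diamond) is the highest of the 12 other arrays for all 5 genes and lies within the NIH vein range for Igfbp3, Nrg1, Gna14, Ubd and Serpinb6b.

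Among the 5 called genes with a symbol the groups overlapped through venous-flow vein 2, and for Ubd also through stenotic side branch 2 at 6.95, above NIH vein 5 at 6.90. Venous-flow vein 2 was the highest of the 12 other arrays for 6 of the 9 called features, and stenotic side branch 2 for the remaining 3. In the value table the column with the ranks of venous-flow vein 2 is that of femoral artery 1, so the vessel this array came from is not settled. With all 17 arrays, 8 features (0.0847%) had every NIH vein array above every other array, 4 of the 8 were called, and none had a gene symbol. This count takes 1 probe per feature, so the second Igfbp3 probe is not part of it. No feature had every NIH vein array below. Without venous-flow vein 2 the count was 15 features (0.159%), among them Igfbp3, Gna14, Nrg1, Serpinb6b, Ccn2 and Lpin3, and 2 features (0.0212%) lay below, 1 of them Tsc22d3. This array was singled out after its values were seen, and leaving out an array can only keep or raise such a count. Without any 1 of the remaining 11 arrays the count above ran from 8 to 16, the 16 without stenotic side branch 3, and none lay below. Ccn2 encodes connective tissue growth factor, Lpin3 a phosphatidate phosphatase, and Tsc22d3 the glucocorticoid-induced leucine zipper protein, the last 2 named here after their values were seen. In the fit of all arrays Ccn2 differed by 1.83 ± 0.36 (SE, adjusted p = 0.0696), Lpin3 by 1.41 ± 0.30 (adjusted p = 0.110) and Tsc22d3 by -1.11 ± 0.28 (adjusted p = 0.197). Among features without a symbol, AI713966 differed by 2.71 ± 0.39 (SE), with NIH vein levels of 8.21 to 10.72, no other array above 8.08 and the smallest adjusted p of all, 0.0226.

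Both forms gave nearly the same differences, which is a property of the files and not a repeat of the experiment, since each array has the same ranks in both. The rank correlation of the differences over 9446 features was 0.998, and 9364 of them (99.1%) had the same sign. Differences were larger in the value table for all 9 called features. For Nrg1 the rise was 0.79 in one form and 1.13 in the other, and for Ubd 2.00 and 2.45.

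**Figure D2:**
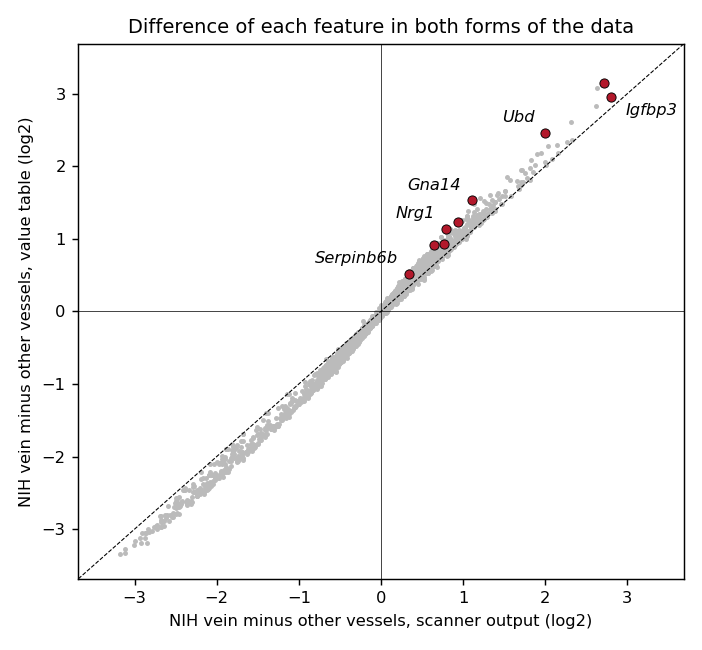
NIH vein minus the other 12 arrays (log2) for 9446 features, from the scanner output on the x axis and from the value table on the y axis, with the 9 called features in red and the line of equality dashed. The points follow the diagonal, with the called features at 0.34 to 2.80 on the x axis and lying on or above the line.

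Set against each vessel separately, the called genes were higher than every group in both forms. These comparisons share the NIH vein arrays, rest on groups of 3 or 6 regions that may share rats, and depend on the unsettled assignment of the 12 arrays. Igfbp3 was 2.71 above the stenotic side branch (adjusted p = 0.203), 2.79 above the venous-flow vein (adjusted p = 0.0777) and 2.92 above the femoral artery (adjusted p = 0.0302) in the scanner output. In the value table these were 3.07 (adjusted p = 0.0819), 2.97 (adjusted p = 0.121) and 2.82 (adjusted p = 0.441). Nrg1 was 0.65, 0.78 and 0.98 above the same groups in the scanner output, with adjusted p-values of 0.355, 0.0759 and 0.0159. Gna14 was 1.03, 1.05 and 1.29 above them, with adjusted p-values of 0.389, 0.0922 and 0.0292. Ubd was 1.77, 1.96 and 2.30 above them, with adjusted p-values of 0.523, 0.0922 and 0.0346. Serpinb6b was 0.28, 0.36 and 0.35 above them, with adjusted p-values of 0.662, 0.0866 and 0.0493. In the scanner output each of the 5 genes passed the test against the femoral artery alone, and in the value table none passed it against any group. Whether the differences from the groups differ among each other was not tested.

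The called genes kept their sign when any 1 array was left out, while the calls depended on single arrays. In 17 fits, each without 1 array, the Igfbp3 difference stayed between 2.64 and 3.11 and that of Ubd between 1.68 and 2.31. Those of Gna14, Nrg1 and Serpinb6b stayed at 0.98 to 1.25, 0.73 to 0.89 and 0.31 to 0.36. Igfbp3 was called in 10 of the 17 fits, Nrg1 in 8, Gna14 in 5, Ubd in 4 and Serpinb6b in 3. Without venous-flow vein 2 all 5 were called, with adjusted p-values of 0.00321 for Igfbp3 and for Nrg1, and without NIH vein 4 none was, with 0.102 for Igfbp3. Over all features the count of calls ran from 0 to 16 in these fits. It was 0 without venous-flow vein 1, 3 or 5 or without femoral artery 1 or 3. It was 2 without NIH vein 4, venous-flow vein 4 or femoral artery 2 and 3 without stenotic side branch 1, while it was 16 without NIH vein 5 or stenotic side branch 3 and 15 without venous-flow vein 2. Without the 3 arrays that stood apart Igfbp3 differed by 2.49, Nrg1, Ubd and Serpinb6b by 0.77, 2.12 and 0.36 (adjusted p = 0.0948 for each of these 4) and Gna14 by 1.02 (adjusted p = 0.118). In a fit with the filled background as a block, which sets the NIH vein against stenotic side branch 1 alone, the differences were 3.06 for Igfbp3, 0.64 for Nrg1, 1.08 for Gna14, 1.84 for Ubd and 0.38 for Serpinb6b, with no call.

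**Figure D3:**
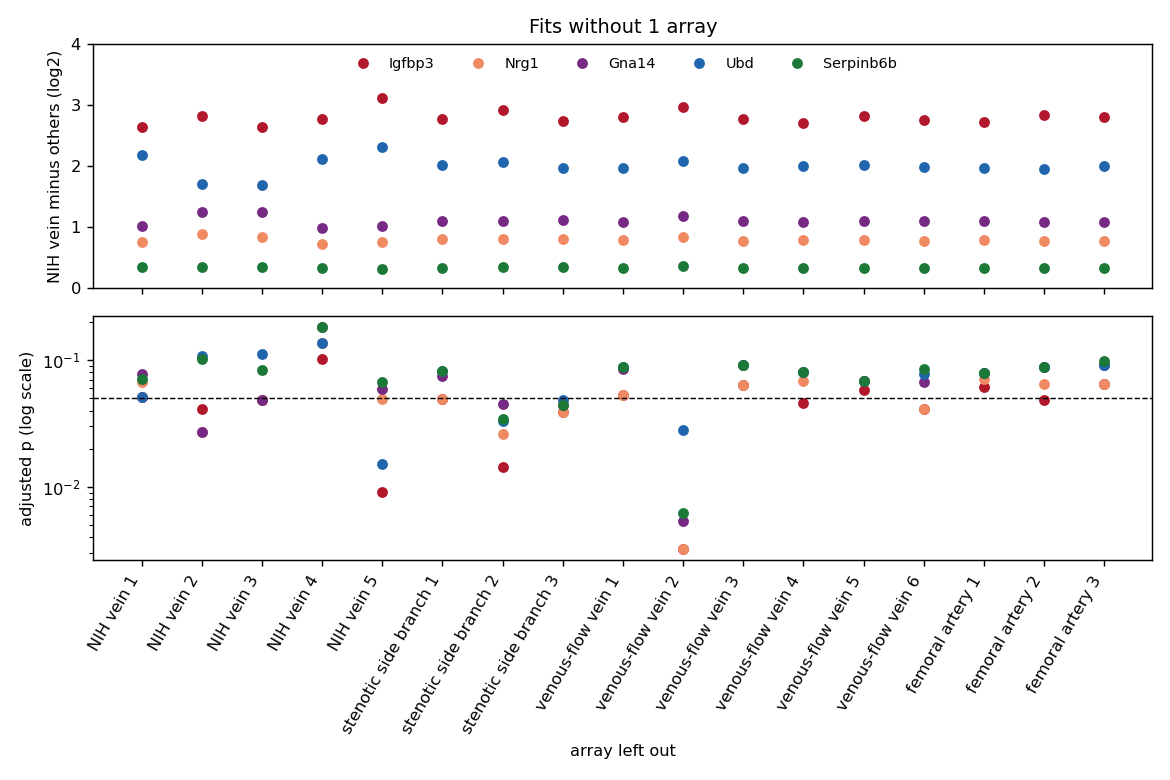
Difference of NIH vein from the other vessels (upper panel, log2, scanner output) and adjusted p (lower panel, log scale, with 0.05 dashed) for the 5 called genes in fits that leave out the array named on the x axis. The differences stay near their level in every fit, while the adjusted p-values range from 0.00321 without venous-flow vein 2 to 0.182 without NIH vein 4.

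Genes of the extracellular matrix had mostly higher means in the NIH vein, and none passed the test. Of 52 genes in the list 23 were measured, 19 of them with a higher mean, beside 54.1% of all features. The list median was 0.52 against 0.01 over all features. An unadjusted p under 0.05 was reached by 6 members, all higher, and by 0 lower members, beside 7.98% and 4.69% of all features. Ccn2, a matrix-bound protein that promotes matrix production, came closest. It was at 9.69, 8.33, 8.77, 9.29 and 8.41 on the NIH vein arrays and at 5.93 to 8.56 on the others, with venous-flow vein 2 the highest. Ctsl, the matrix-degrading lysosomal protease cathepsin L, was at 9.86 to 11.44 in the NIH vein and 6.18 to 10.80 in the others, a difference of 2.14 ± 0.63 (SE, adjusted p = 0.274). The ranges overlapped through stenotic side branches 2 and 3 and venous-flow vein 5, each above the lowest NIH vein array. The fibronectin gene Fn1, the collagen gene Col1a2, the proteoglycan gene Bgn and the fibrillin gene Fbn1 differed by 2.15, 2.08, 1.81 and 1.01 (adjusted p = 0.36 for each). The Col1a2 difference was not shared by every vessel in the scanner output. There it was -0.11 from the stenotic side branch, 2.07 from the venous-flow vein and 4.28 from the femoral artery. In the value table these were 2.38, 2.11 and 1.79. Dcn and Eln, for decorin and elastin, differed by -0.06 and -0.03. Fn1, Bgn, Fbn1, Dcn and Eln were named after their values were seen.

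Fibroblast markers also had mostly higher means, and none passed the test. Of 14 markers 5 were measured and 4 had a higher mean, beside 54.1% of all features. The list median was 0.32, and Col1a2 and Col3a1 are in both lists. Thy1, a surface marker of fibroblasts, differed by 0.66 ± 0.23 (SE, adjusted p = 0.36). For Thy1, NIH vein minus stenotic side branch was 0.02 in the scanner output and 1.38 in the value table. The mean level over the 5 markers was 8.04 to 9.09 on the NIH vein arrays and 6.73 to 8.99 on the other arrays. Smooth muscle markers had a median of 0.09 with 6 of 18 measured, and their mean level was 7.53 to 8.24 in the NIH vein and 7.12 to 8.16 in the others. Tagln, a smooth muscle actin-binding protein gene, was at 5.80 to 6.31 in the NIH vein, near the floor, and Des, for desmin, was at 5.72 to 6.02. Cspg4, also in this list and named after its values were seen, was far above the floor on most arrays. It was at 5.85 on NIH vein 1, at 10.2 to 12.1 on NIH veins 2 to 5 and at 5.83 to 11.53 in the other vessels. The part of such cells in the matrix values was not tested, and in bulk samples fewer cells of a type and less RNA per cell cannot be told apart.

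Blood cell marker lists had medians at or below that of all features. Of the myeloid markers 9 of 22 were measured and 7 had a lower mean in the NIH vein, with a median of -0.32. Over all features 54.1% had a higher mean. Cd68, a macrophage marker, differed by -0.37 (adjusted p = 0.69), and the neutrophil gene S100a8 by -0.44 (adjusted p = 0.68). The mean level of the 9 was 6.47 to 7.06 on the NIH vein arrays and 6.33 to 8.07 on the others. The red cell gene Hbb-b1 was at 13.75 to 15.75 in the NIH vein and 10.38 to 15.75 in the others, a difference of 1.19 (adjusted p = 0.61). Lymphocyte, skeletal muscle and nerve markers were each measured for 2 or 3 genes, with list medians of -0.12 to 0.04, and no adipocyte marker was among the features.

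No vasoactive gene passed the test. Adm, for the vasodilator peptide adrenomedullin, was at 9.43, 9.85, 10.28, 9.98 and 7.32 on the NIH vein arrays and at 5.78 to 8.85 on the others. Of the NIH vein arrays 4 lay above all others, and NIH vein 5 did not. The difference was 2.32 ± 0.51 (SE, adjusted p = 0.124). Ddah1, which degrades an inhibitor of nitric oxide synthase, was at 8.57 to 9.55 on 4 NIH vein arrays and at 5.80 on NIH vein 1, and it differed by 1.51 ± 0.50 (SE, adjusted p = 0.355). Without the 3 arrays that stood apart, NIH vein 1 among them, the Ddah1 difference was 2.01 with an adjusted p of 0.0421, 1 of 5 calls in that fit, none of which was among the 9. Ece1, which activates endothelin, and the natriuretic peptide receptor Npr1 differed by 0.87 and 1.03 (adjusted p = 0.36 for each). The list as a whole was balanced, with 7 of 14 measured members higher and a median of 0.02.

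Genes of lipoprotein uptake and lysosomes had higher means in 12 of 15 measured members, with a median of 0.37 and no call. Over all features 54.1% had a higher mean and the median was 0.01. Olr1, the endothelial receptor for oxidized lipoprotein, was at 9.48, 8.63, 7.49, 7.71 and 6.50 in the NIH vein and 5.82 to 7.28 in the others, a difference of 1.53 ± 0.37 (SE, adjusted p = 0.178). NIH vein 5 was the only NIH vein array inside the range of the others. Apoe, the lipoprotein apolipoprotein E, differed by 1.26 (adjusted p = 0.36).

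In the adhesion and inflammation list 6 of 14 measured members were higher, with a median of -0.08. Il1rl1, the receptor of interleukin-33, was at 8.14 to 11.21 in the NIH vein. In the others it was at 5.72 to 10.45, with stenotic side branches 2 and 3 at 8.98 and 10.45 and venous-flow vein 2 at 9.77 by scanner file, and the difference was 2.64 ± 0.83 (SE, adjusted p = 0.314). NIH vein minus stenotic side branch was 0.76 for Il1rl1 in the scanner output and 4.61 in the value table. The leukocyte adhesion genes Selp, Icam1 and Vcam1 differed by 0.76, 0.78 and -0.84, with adjusted p-values of 0.36, 0.41 and 0.60. In the angiogenesis and tip cell list 3 of 7 measured members had a higher and 4 a lower mean, with a median of -0.06 and no call. Esm1, a secreted proteoglycan of endothelial tip cells, differed by 1.12 ± 0.31 (SE, adjusted p = 0.25), and Vegfc, a growth factor of lymphatic and venous endothelium, by 0.56 (adjusted p = 0.37).

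Genes that respond to flow were balanced, with 6 of 12 measured members higher and a median of 0.02. Klf6, a transcription factor induced in injured endothelium, was at 11.08 to 13.28 in the NIH vein and 9.11 to 12.62 in the others, with venous-flow vein 5 the highest, a difference of 1.68 ± 0.55 (SE, adjusted p = 0.346). The flow-induced factor Klf4 differed by -0.32 and the immediate early factor Egr1 by 0.45, with adjusted p-values of 0.86 and 0.83. In the list of transforming growth factor beta and endothelial to mesenchymal transition, 11 of 15 measured members were higher, beside 54.1% of all features. The list median was 0.06, and the list held large differences of both signs. The receptor gene Tgfbr1 and the transition factor Snai1 differed by -2.08 ± 0.83 and -0.96 ± 0.39 (SE, adjusted p = 0.36 for both), while Fn1 stood at 2.15 and S100a4, a mesenchymal calcium-binding protein gene, at 1.39 (adjusted p = 0.37).

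Genes of endothelial junctions had lower means in 5 of 6 measured members, with a median of -0.58, while 54.1% of all features had a higher mean. Gjd3, a connexin gene, was at 5.94 to 8.06 in the NIH vein and 6.27 to 9.49 in the others, a difference of -1.41 ± 0.58 (SE, adjusted p = 0.36). The low values in the other vessels were those of the 3 stenotic side branches, at 6.27 to 6.74, and the femoral arteries were at 8.86 to 9.49. This holds for the assignment by scanner file: in the value table the stenotic side branches were at 8.62, 6.95 and 9.14, and the low columns were venous-flow veins 1, 2 and 3 at 5.82, 5.72 and 6.35. NIH vein minus stenotic side branch was 0.33 in the scanner output and -1.88 in the value table. Jam2, a junctional adhesion molecule gene, differed by -0.60 (adjusted p = 0.40). Both signs turned, to 0.44 for Gjd3 and 0.03 for Jam2, in the fit with the filled background as a block, where the 5 NIH vein arrays are set against stenotic side branch 1 alone, so this reading cannot separate the background from that 1 array. Arterial and venous identity genes had a median of -0.11, with Notch3 at -0.23 (adjusted p = 0.44) and the Notch ligand Jag1 at 0.42 (adjusted p = 0.52).

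The remaining lists had medians of 0.01 to 0.21 and no call. Of 28 measured genes of the translation machinery 23 had a higher mean, and the median was 0.13. An unadjusted p under 0.05 was reached by 6 of the 23, and over all features 7.98% were higher and 4.69% lower at that level and 54.1% had a higher mean. Rps2, a ribosomal protein gene, and the cap-binding factor gene Eif4e differed by 1.46 and 0.44 (adjusted p = 0.36 for both). Mitochondrial respiration had a median of 0.07, with the phosphate carrier Slc25a3 at 1.21 and the complex subunit Ndufv1 at -1.09 (adjusted p = 0.36 for both). The unfolded protein response had a median of 0.21, with its transcription factor Atf4 at 1.01 (adjusted p = 0.41) and the translocon-associated Ssr4 at 0.52 (adjusted p = 0.51). Actin and cytoskeleton had a median of 0.01, with the tropomyosin gene Tpm3 at 1.17 (adjusted p = 0.24) and the crosslinker Actn1 at -1.11 (adjusted p = 0.37). Cell cycle genes had a median of 0.05, with the mitotic kinases Cdk1 and Plk1 at 0.29 (adjusted p = 0.29) and 0.37 (adjusted p = 0.45), and 7 of the 10 measured were near the floor. Hypoxia and glycolysis had a median of 0.03, with Adm also in this list and hexokinase Hk1 at 0.52 (adjusted p = 0.44). Coagulation and fibrinolysis had a median of 0.07, with Anxa2, which gathers plasminogen at the cell surface, at 0.25 (adjusted p = 0.36).

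**Figure D4:**
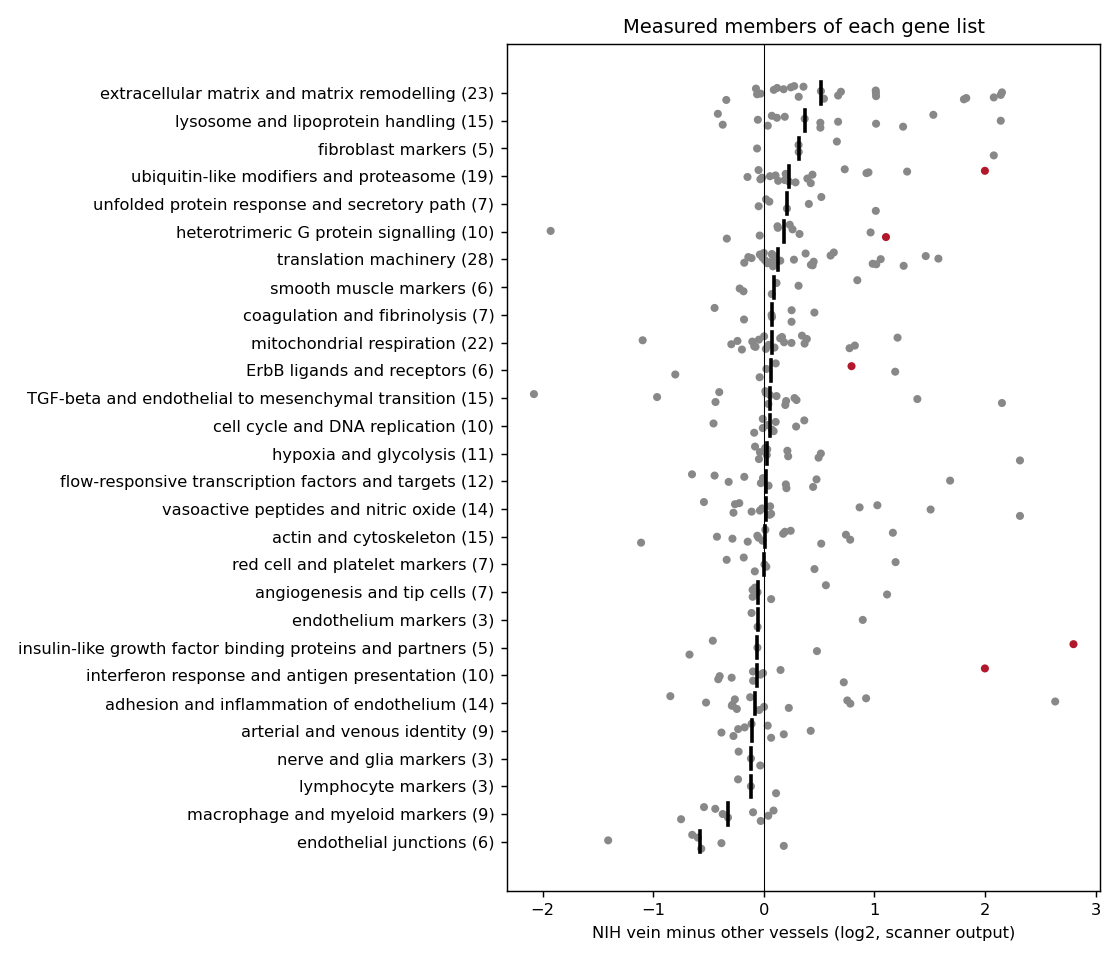
Difference of NIH vein from the other vessels (log2, scanner output) for each measured member of the gene lists with 3 or more members measured, 1 point per gene, with called genes in red and the median of each list as a black bar. The number in brackets counts the measured members, and the medians run from -0.58 for endothelial junctions to 0.52 for extracellular matrix.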

How the data were processed

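Each of the 17 samples was hybridized to 1 single-colour array. By the file headers the deposited scanner output holds signal and local background per spot as raw intensity. On the 11 arrays with a filled background it is thus not raw throughout. The deposited value table holds log2 values, and its sorted columns agree across arrays (mean SD 4.49e-05), as after quantile normalization by the authors. The sources used here do not say how the authors chose its 10000 spots or name the scanner and its software. In the files the difference column of venous-flow vein 5 does not equal signal minus background, so signal and background were read instead. On all arrays signal exceeded the background column at these spots, by at least 16.9 intensity units.

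With limma 3.58.1 under R 4.3.3, the signal of these spots went through normexp background correction (offset 50), log2 and quantile normalization. Python 3.11.15 with numpy 2.4.6, pandas 2.3.3 and matplotlib 3.10.9 handled tables and figures. RefSeq accessions gave 1 symbol to 3117 spots, and each symbol or array name was represented by its probe of highest mean. NIH vein (5) was set against the other 12 arrays as 1 group with lmFit and eBayes, 2-sided, without covariates, with Benjamini-Hochberg adjustment over 9446 features and a threshold of 0.05. The value table was fitted in the same way. The comparison with each vessel used 1 model with 4 group means. SDs are taken over arrays and SEs come from the fit. The number of arrays limits the precision, and p-values measure the spread between regions. By the count in the study text some regions share a rat, which the labels do not settle. No fold is given where a group mean lies within 0.5 of the floor of 5.64, and the median of all levels was 6.12.

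Named genes are the called genes with a symbol, the markers Igfbp3, Ubd, Gna14 and Nrg1, and up to 3 called members of each list or, where none was called, the 2 with the smallest p. Further list members were named after their values were seen, and a few genes are not reported here. The members, lists and rule were chosen with earlier results of these data known. Correlations of same-numbered arrays after removal of group means ran from -0.607 to 0.329. They rest on the grouping by scanner file and were not set against arrays of different number. They therefore cannot decide whether replicate numbers pair the samples. On simulated data with 9446 features the fit recovered 72 of 100 features changed by 1 and 94 of 100 changed by 2 on the log2 scale, and called 15 of 9246 unchanged features. The simulated noise was normal and independent on every array. It held no shared rats, filled background, floor or arrays that stand apart, so these rates need not hold for the real data. Alternatives covered background correction, scaling, the form of the data, feature choice, weighting of groups, left-out groups and arrays, and blocks. Chosen after seeing the data were the fits without the 3 arrays that stood apart and with the filled background as a block. So were the fit without venous-flow vein 2 and femoral artery 1 and the count of non-overlapping features without venous-flow vein 2.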

Additional observations from a re-analysis of the deposited data

Results flagged for a closer look

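Of 55 named features examined, 2 had a single NIH vein array far from the other 4, by Dixon's criterion with a critical ratio of 0.71 for 5 arrays. Chance flags about 1 in 20. Adm was at 7.32 on NIH vein 5, and the nearest of the other 4 was at 9.43, a gap of 0.714 of the whole range. Ddah1 was at 5.80 on NIH vein 1, and the nearest was at 8.57, a gap of 0.740 of the range. NIH vein 1 is 1 of the 3 arrays that stood apart, with a median rank correlation of 0.361 with the others.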

How the results depend on the processing

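The count of 9 calls in the scanner output depended on the processing. It was 4 without background correction, 2 with an offset of 10, 29 with median scaling (8 shared with the 9) and 4 over the 4723 features with the highest mean. It was 2 (1 higher, 1 lower) with equal weight of the 3 other groups in the value table, 207 (137 higher, 70 lower) without the stenotic side branch and 0 without the venous-flow vein or without the femoral artery. It was 1, a lower feature, with arrays that have their own background. Without the 3 arrays that stood apart it was 5, and with the filled background as a block, where 188 features had an unadjusted p under 0.05, it was 0, both chosen after seeing the data. With the replicate block it was 0 in the scanner output (639 at an unadjusted p under 0.05) and 0 in the value table (1049), in limma. Since the numbers are not known to pair the samples, a call lost there is not described as a weaker effect. Leaving out single arrays gave 0 to 16 calls. Without venous-flow vein 2 and femoral artery 1, chosen after seeing the data, 9 features were called, 7 of them among the main 9. In the value table, with 7 calls, leaving out single NIH vein arrays gave 0 to 7, and the features with the highest mean gave 4. With fewer arrays or features, the alternative itself changes the test; in other cases the cause was not tested.

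The 5 called genes kept their sign in all these fits. Under the 18 alternatives other than single arrays, of 979 values of named genes 856 kept sign and side of the threshold, 87 lost and 15 gained a call, and 21 changed sign. In the fits without 1 array 3 more changed sign. All 24 belong to genes that were not called. With arrays of their own background, and equally with the filled background as a block, the difference was 0.44 for Gjd3, 0.0335 for Jam2, 0.23 for Snai1, 0.14 for Notch3, 0.40 for Ndufv1, 0.41 for Sox18 and 0.0394 for Sox10. With median scaling it was 0.27 for Notch3, 0.12 for Sox18, 0.22 for Tnni2 and 0.0923 for Pmp22. It was -0.0526 for Cd3d without the venous-flow vein, -0.0152 for Mb without NIH vein 5, 0.0287 for Tnni2 without the femoral artery, 0.00172 for Tnni2 without femoral artery 1, 0.14 for Pmp22 without the stenotic side branch and 0.0203 for Pmp22 without stenotic side branch 3. Levels near the floor limit all dim genes: differences of Ubd, Gna14, Nrg1 and Serpinb6b were 3.07, 2.22, 1.71 and 0.91 with an offset of 10.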

Other observations

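Tgfbr1 and Gnb2, with lower means in the NIH vein and chosen here after their values were seen, had a like profile over the arrays. Tgfbr1 was at 5.87 to 8.24 on the NIH vein arrays, and it was at 9.07 to 10.82 on the femoral arteries and venous-flow veins 1, 3, 4 and 6. Venous-flow vein 5, at 6.36, and stenotic side branches 2 and 3, at 6.13 and 5.88, lay within that range, as did venous-flow vein 2 at 7.58, while stenotic side branch 1 was at 8.92. Gnb2 was at 6.05 to 8.74 in the NIH vein, 6.25 and 7.60 on venous-flow veins 5 and 2, 6.31 to 8.28 on the stenotic side branches and 9.13 to 10.45 on the femoral arteries and venous-flow veins 1, 3, 4 and 6. These profiles follow the scanner files, and in the value table the columns differ: Tgfbr1 was at 5.15 on venous-flow vein 3, 7.36 on femoral artery 1 and 10.14 on stenotic side branch 3. In both genes NIH vein 2 was the highest of the 5 NIH vein arrays. Apart from this profile, the antioxidant enzyme gene Gpx1 had the smallest adjusted p among features with a lower mean: it differed by -1.12 ± 0.27 (SE), adjusted p = 0.161, from 10.64 ± 0.69 (SD, n = 5) to 11.76 ± 0.45 (SD, n = 12). Its levels on single arrays were not compared with those of Tgfbr1 and Gnb2.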
